A study of Mus musculus with 12 samples.

Results

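The comparison described here asks whether the loss of Pkm2 from rods changed RNA differently in the rods themselves and in the retina as a whole. For every gene, the difference between Pkm2 Rodko and control mice in rod polyribosome RNA was taken, and the same difference in total retinal RNA was subtracted from it. This quantity, called the interaction here, used all 12 libraries of the series, 3 in each of 4 groups. The 4 groups were rods of Pkm2 Rodhet mice, rods of Pkm2 Rodko mice, and the total retina of each genotype. A negative interaction means that the level in Rodko relative to control was lower in rods than in retina, and a positive one that it was higher in rods than in retina.

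Pkm2 Rodko mice carried 2 floxed Pkm2 alleles and the i75 rhodopsin-Cre transgene, and the Pkm2 Rodhet controls carried the same Cre with 1 floxed allele, so the control rods could also recombine 1 allele. All mice were homozygous for Ribo-Tag, an Rpl22 allele that gains an HA epitope where Cre is active. Rod-TRAP (translating ribosome affinity purification) pulled down the tagged polyribosomes with an antibody to HA, and the lysate before the pulldown gave the retina libraries, also called the input. The retinas were perfused with cycloheximide, which holds ribosomes on their mRNA. The methods place the mice at 2 months of age, whereas the deposited design text gives 2 weeks. The animals were littermates from combined litters, and how many animals stand behind a library was not given in the sources used here, so a p-value measures only the spread between libraries.

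Pyruvate kinase makes pyruvate and ATP in the last step of glycolysis. The Pkm gene yields 2 muscle-type isoforms from mutually exclusive exons. PKM1 forms a constantly active tetramer, and PKM2, the main isoform of photoreceptors, can be slowed or activated by metabolites and phosphorylation. Rods are the majority of cells in the mouse retina and make much of their ATP by aerobic glycolysis, whereas bipolar, amacrine, horizontal and ganglion cells and Müller glia make up the inner retina. The alternative exons are shown because the deposited table has 1 value per gene and so reads on either exon were counted under the same name. Both are 167 bases long on the forward strand of chromosome 9 in GRCm38 (GENCODE M21), at chr9:59675029-59675195 for the Pkm1 exon and chr9:59675568-59675734 for the Pkm2 exon, and both are coding. Aligned base by base, they differ at 64 positions, printed in capitals, and are 61.7% identical.
exon of Pkm1: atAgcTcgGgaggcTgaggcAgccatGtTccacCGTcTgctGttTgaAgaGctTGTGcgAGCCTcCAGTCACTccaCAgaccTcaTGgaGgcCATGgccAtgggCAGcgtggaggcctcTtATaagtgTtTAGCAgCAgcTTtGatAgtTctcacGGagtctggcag
exon of Pkm2: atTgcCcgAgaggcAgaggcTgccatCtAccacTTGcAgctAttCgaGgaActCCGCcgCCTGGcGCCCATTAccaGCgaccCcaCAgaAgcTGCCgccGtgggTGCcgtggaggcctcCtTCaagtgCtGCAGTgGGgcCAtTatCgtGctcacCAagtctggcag

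The libraries held between 13458890 and 22790074 reads on genes. Gnat1, the alpha subunit of rod transducin, fitted the labels of the fractions, with 506708 to 600073 scaled reads in the 6 rod libraries and 122243 to 145364 in the 6 retina libraries. Scaled reads are reads brought to a common scale over the 12 libraries by the TMM method. The markers of 8 other cell types (106 genes of bipolar, amacrine, horizontal and ganglion cells, Müller glia, pigment epithelium, vessels and microglia) were low in the pulldown but not absent. Their summed level was 30468 to 35705 scaled reads in control rods and 26892 to 29262 in Rodko rods, and these ranges did not overlap. In retina it was 158362 to 186509 in controls and 153563 to 165645 in Rodko, and these ranges overlapped. The largest rod sums were those of Müller glia (12065 to 15203 in controls, 9866 to 11665 in Rodko) and bipolar cells (9342 to 10893 and 8345 to 10810). Type by type, the rod ranges of the genotypes overlapped for bipolar, ganglion, pigment epithelium and microglia markers. They did not for Müller glia, amacrine, horizontal and vessel markers. Between 1 and 4 of the 106 markers had no read in a rod library, all of them low genes such as Best1, Cdh5 and Onecut1, and every marker was detected in every retina library. In bulk samples, fewer cells of a type and less RNA per cell cannot be told apart. In the pulldown, neither can be told apart from a different amount of other-cell RNA left in it. The part of this difference in the results was not tested. The 4 Y-linked genes counted (Ddx3y, Eif2s3y, Kdm5d and Uty) had 0 reads in both fractions of Rodhet replicates 1 and 2, a count that allows up to 3 reads, and 322 to 1599 reads in each of the other 8 libraries. The genotypes thus differed in these genes, and both fractions of a replicate were alike in having them or not. Xist, the other sex-linked gene tested, had reads in all 12 libraries, from 470 to 952 in retina and from 24 to 296 in rods. Any part of sex in the genotype effects was not tested.

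No gene passed an adjusted p of 0.05 for the interaction in limma, out of 18131 genes tested, or 0.00%. At an unadjusted p under 0.05 there were 725 genes, which is 4.0% of those tested. Of these, 507 genes (2.80%) had a lower and 218 (1.20%) a higher Rodko level in rods relative to retina. Rod and retina libraries with the same genotype and number deviated together, so a fit with the library pair as a block was made, and it gave 844 lower (4.66%) and 397 higher (2.19%) genes, or 6.84% in all, again with none past the adjusted threshold. On recovered reads, edgeR's quasi-likelihood test called 0 genes, with 758 lower and 175 higher at an unadjusted p under 0.05, and DESeq2 called 1 gene, which was Pkm. The lower genes made up 69.9% of the 725 and 80.8% of the 770 genes found when the libraries were scaled by total reads alone. The counts also depended on single libraries. Without both libraries of Rodhet replicate 2 there were 332 lower and 336 higher genes, and without both libraries of Rodko replicate 2 there were 264 and 133. In the same fit, 39 genes (0.215% of those tested) passed the adjusted threshold for the genotype effect in rods, 38 of them lower, and 1 gene, Pkm, passed in retina (0.00552%). The median 95% confidence interval of an interaction reached 0.27 to each side on the log2 scale for the 3496 genes with the highest mean scaled reads, and 1.7 for the 3395 genes with means of 5 to 20. These are medians, so that the intervals of some genes were narrower and those of others wider.

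Pkm, the targeted gene, was lower in both fractions of Rodko mice, and its interaction was negative. Its level in control rods was 66618, 65101 and 70318 scaled reads, and in Rodko rods it was 30486, 28578 and 28253. In retina the controls had 26619, 28897 and 26666 scaled reads and Rodko had 16978, 17094 and 17531. The groups did not overlap in either fraction, and Rodko kept 43.2% of the control mean in rods and 62.8% in retina. Pkm fell by 1.21 on the log2 scale in rods (limma, adjusted p = 1.28e-06) and by 0.67 in retina (adjusted p = 0.00311).

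The interaction of Pkm was -0.54 on the log2 scale, with a standard error of 0.10 and a 95% interval from -0.76 to -0.32. The unadjusted p was 9.81e-05 and the adjusted p from limma was 0.889, or 0.443 with the pair block. DESeq2 gave the same gene an adjusted p of 4.14e-06 for an interaction of -0.55. Over the 6 pairs, the log2 level in rods minus that in retina was 1.32, 1.17 and 1.40 in controls and 0.84, 0.74 and 0.69 in Rodko. All 3 Rodko values thus lay below all 3 control values, an order that 6.14% of the genes tested showed. Rods held 2.46-fold the retina level of Pkm in controls and 1.69-fold in Rodko. A two-sided exact permutation test over the pairs gave p = 0.1, which is the smallest that 3 against 3 pairs can give. With any 1 library or 1 pair left out, the interaction stayed between -0.59 and -0.49.

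**Figure D1:**
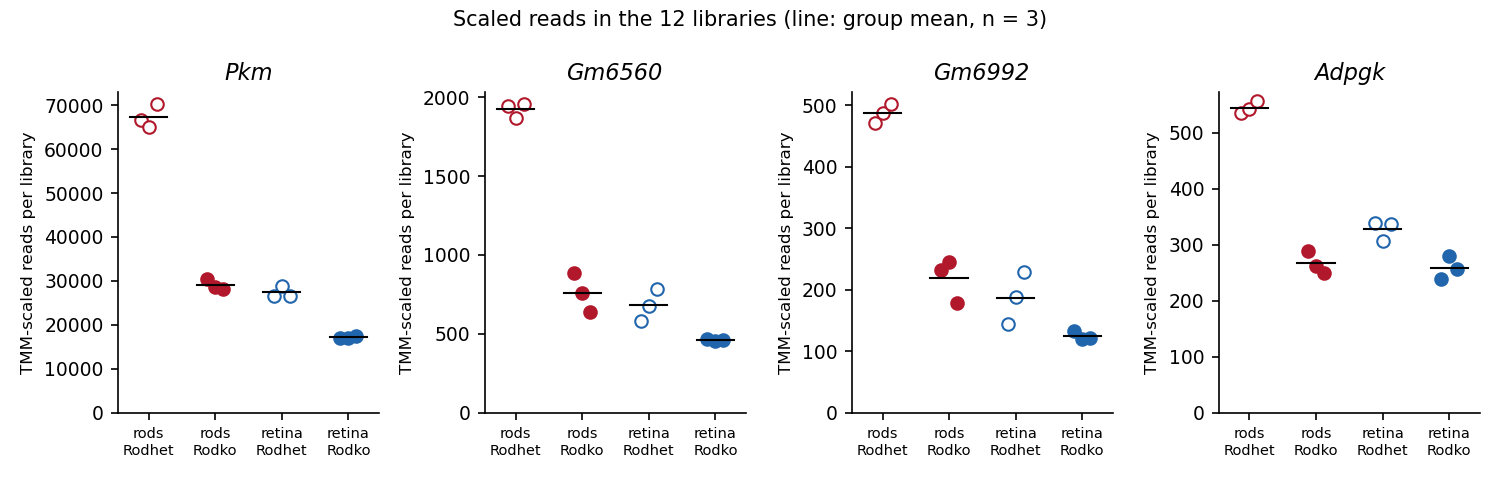
Scaled reads per library (vertical axes, from 0) of Pkm, Gm6560, Gm6992 and Adpgk in the 4 groups, with open points for Rodhet, filled points for Rodko and a line at the mean of 3. In rods the Rodko points of each gene lie below all control points, and for Pkm the Rodko rods at 28253 to 30486 are near the control retina at 26619 to 28897.

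Gm6560 and Gm6992 are predicted genes whose sequence resembles that of Pkm. Of all 75-base windows in Gm6560, 22.2% also occur in Pkm transcripts, and 1.96% of those in Gm6992, so reads could be assigned to either gene and their values are uncertain. Gm6560 had 1942, 1870 and 1957 scaled reads in control rods and 886, 761 and 637 in Rodko rods, against 581, 679 and 782 and then 468, 453 and 462 in retina. Its interaction was -0.80 (standard error 0.17, unadjusted p = 0.000282), with a Rodko level of 39.6% of control in rods and 67.7% in retina. Gm6992 stood at 44.9% in rods and 66.7% in retina, and its interaction was -0.61 (unadjusted p = 0.0187). Both genes thus resembled Pkm in the size of the difference in each fraction, and both were called in rods but not in retina.

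Adpgk encodes an ADP-dependent glucokinase, which phosphorylates glucose at the start of glycolysis with ADP in place of ATP. Its scaled reads were 535, 541 and 556 in control rods and 289, 262 and 249 in Rodko rods. In retina they were 339, 306 and 336 in controls and 239, 280 and 256 in Rodko. The groups did not overlap in either fraction. Adpgk fell by 1.03 on the log2 scale in rods (limma, adjusted p = 0.000394), the difference in retina was -0.34 and did not pass, and the interaction was -0.69 (95% interval -0.99 to -0.38, unadjusted p = 0.000281, adjusted p = 0.999).

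Adpgk is also a close neighbour of Pkm, 12 places before it in the gene order of the RefSeq reference table (GRCm38). Among the 15 nearest genes on each side, 16 other genes were tested, and Adpgk was the single one with an unadjusted p under 0.05. The genes in between included Bbs4, a subunit of a complex that carries cargo to cilia, with an interaction of 0.04, Hexa, a lysosomal hexosaminidase, with 0.16, and Parp6 with -0.14. Nr2e3, a transcription factor that represses cone genes in rods and lies 8 places after Pkm, had -0.07. These neighbours were chosen after their values were seen. Of 201 tested genes within 10 Mb of Pkm, 8 were lower (3.98%) and 6 higher (2.99%) at an unadjusted p under 0.05, beside 2.80% and 1.20% of all genes tested, and the median interaction was 0.03. The tested gene with the smallest p after Adpgk was Poglut3, a protein O-glucosyltransferase with few reads in rods, at -1.86 (unadjusted p = 0.00552).

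The other lower genes by the smallest p, among those with at least 50 mean scaled reads, were Olfm4, Slc6a12, Entpd3, Igsf21, Ntng2, Pcsk6 and Dock1. All but Ntng2 had lower levels in rods than in retina, passed the adjusted threshold in rods and did not pass it in retina. The rod libraries enter both the rod effect and the interaction, so these are not separate evidence. Igsf21 and Pcsk6 are also on the list of the study described further on. Olfm4, which encodes the secreted glycoprotein olfactomedin 4, had 19.6, 26.1 and 20.7 scaled reads in control rods and 5.2, 1.36 and 2.01 in Rodko rods, against 113 to 159 in control and 109 to 154 in Rodko retina. Its interaction was -2.59 (standard error 0.47, unadjusted p = 7.23e-05, adjusted p = 0.889). The Rodko rod libraries held only 4, 1 and 2 reads of it, and the interaction was -1.38 with a pseudocount of 8 and -3.01 with one of 0.1. Without Rodko rod replicate 1 it passed, with an adjusted p of 0.0381, and it is the one gene that did so in limma with a single library left out.

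Slc6a12, a betaine and GABA transporter, rested on equally few reads. It had 17.5 to 18.01 scaled reads in the control rods and 1.30, 0 and 4.02 in the Rodko rods, with 121 to 161 and 108 to 156 in retina. Its interaction of -2.92 (unadjusted p = 0.000294) became -1.29 with a pseudocount of 8. Entpd3, an ectonucleotidase, had 8.19 to 19.5 scaled reads in control rods and 2.60 to 3.02 in Rodko rods, and 89.1 to 117 in all retina libraries (interaction -1.73). Pcsk6, a proprotein convertase, stood at 42.9% of control in rods and 84.7% in retina (interaction -0.96), and Dock1, an activator of Rac, at 41.5% and 86.4% (interaction -1.01).

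Igsf21, a synaptic adhesion protein, and Ntng2, the membrane-anchored netrin G2, were better covered. Igsf21 had 203, 221 and 216 scaled reads in control rods and 125, 151 and 128 in Rodko rods, while the retina groups overlapped at 427 to 525 and 430 to 485. Its interaction was -0.65 (95% interval -0.999 to -0.29). Ntng2 had a higher level in rods than in retina, with an estimate of -0.25 in rods and 0.24 in retina, neither of which passed. It had 2837 to 3374 scaled reads in control rods and 2526 to 2723 in Rodko rods, against 1324 to 1604 and 1574 to 1761 in retina, and its interaction was -0.49 (95% interval -0.76 to -0.22). None of these genes passed the adjusted threshold for the interaction in limma with all libraries.

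The 10 higher genes by the smallest p had interactions from 0.32 to 1.08, and none passed the adjusted threshold in rods or in retina. Plcd4, a phospholipase C, had 22.9, 22.3 and 19.1 scaled reads in control rods and 42.9, 31.2 and 43.3 in Rodko rods, and 86.3 to 94.8 and then 71.5 to 86.2 in retina. The rod groups did not overlap, and the interaction was 1.08 (95% interval 0.43 to 1.72, unadjusted p = 0.00292). Spata5, an ATPase needed for ribosome maturation, stood at 128% of control in rods and 86.7% in retina, with an interaction of 0.55. Trmt10b, a tRNA methyltransferase, had 164, 164 and 167 scaled reads in control rods and 225, 231 and 227 in Rodko rods. Its retina levels overlapped at 191 to 230 and 194 to 207, and the interaction was 0.52.

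Mettl16, an RNA methyltransferase, had 973 to 1033 scaled reads in control rods and 1209 to 1308 in Rodko rods, with overlapping retina levels of 683 to 774 and 694 to 743 (interaction 0.32). Rpl22l1, a paralog of the ribosomal protein that carries the tag in these mice, differed more in retina than in rods. It had 595 to 615 and 574 to 703 scaled reads in the rod groups, which overlapped, and 535 to 683 and 433 to 531 in the retina groups, which did not, for an interaction of 0.47. The other 5 were Nup54 of the nuclear pore (0.50), Taf1d of RNA polymerase I transcription (0.52), the zinc finger gene Zfp35 (0.37), the membrane transporter Slc35f5 (0.47) and Nkiras1, a small GTPase-like inhibitor of NF-kB signalling (0.47). All 10 had an adjusted p of 0.999, and in all 10 the 3 Rodko pairs lay above the 3 control pairs. This order (5.93% of all genes) is nearly fixed by choosing genes for a small p, so nothing is read from it.

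**Figure D2:**
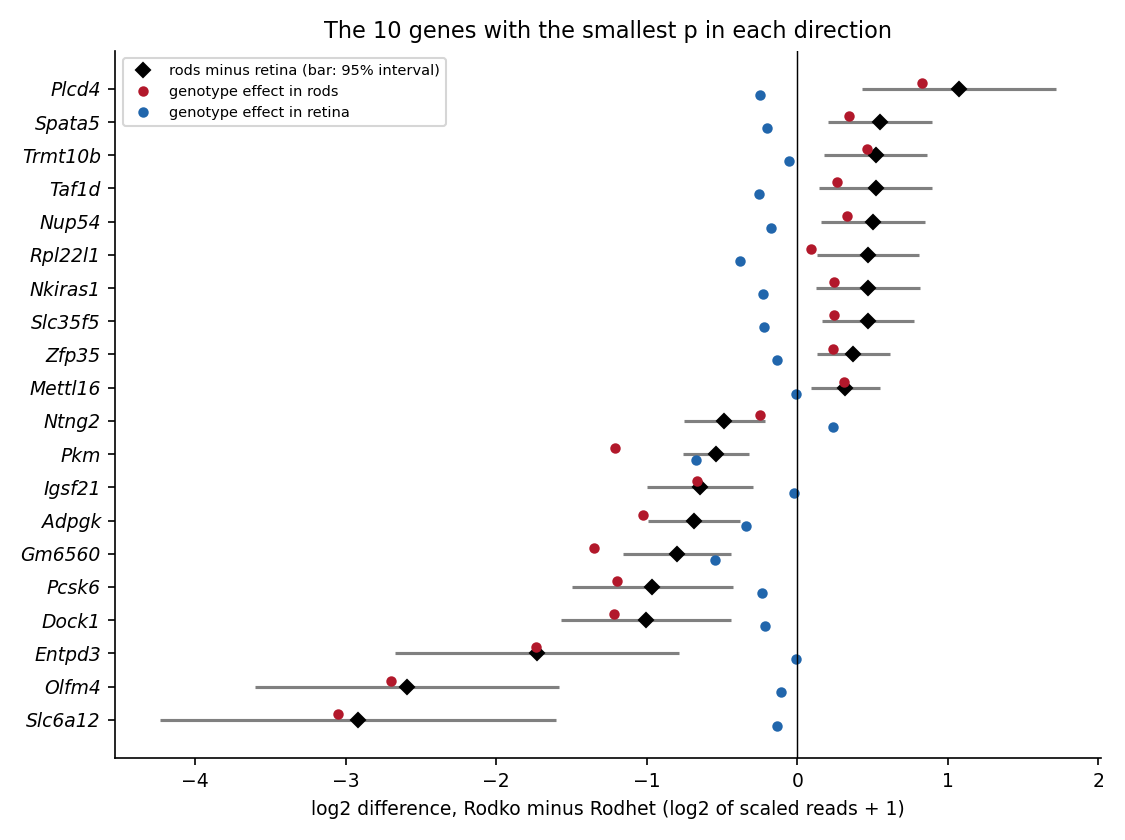
Interaction (black diamonds, with bars for the 95% interval) and the genotype effect in rods (red) and in retina (blue). The 10 genes with the smallest p in each direction are drawn, ordered by the size of the interaction. The horizontal axis is log2 of scaled reads + 1, Rodko minus Rodhet. Among the lower genes Ntng2 alone has its rod and retina values on opposite sides of 0, and for the higher genes the retina values lie between -0.38 and -0.01.

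The study lists 23 genes from its RNA-seq, Pkm, Gm6560, Gm6992 and Adpgk among them. Of these, 22 had a negative interaction, 21 of them with an unadjusted p under 0.05, where the background is 2.80%, and the median was -0.64. One listed name, a heparan sulfate sulfotransferase, matches no gene in the table and was read as Hs3st5, which is uncertain. Without it, 21 of 22 were negative, 20 with an unadjusted p under 0.05, and the median was -0.62. The study chose this list on these same libraries, so it is not independent evidence of a direction. The medians of its genotype effects were -0.84 in rods and -0.17 in retina. Apart from Pkm, its 2 relatives and Adpgk, all 19 had a lower level in rods than in retina. Grm6, the glutamate receptor at the dendrites of ON bipolar cells, had 164, 210 and 169 scaled reads in control rods and 112, 101 and 101 in Rodko rods, against 1477 to 1714 and 1241 to 1672 in retina, and an interaction of -0.66. Dtna, a component of the dystrophin complex, had -0.59.

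Lrfn3, a synaptic adhesion protein, had an interaction of -0.99, with 54.7% of control in rods and 106% in retina. Flrt1, an adhesion and FGF receptor partner, had -1.28. Lrp2, the endocytic receptor megalin, differed the least from its retina value, with 59.0% of control in rods and 70.9% in retina and an interaction of -0.27 (unadjusted p = 0.113). Trpm2, a cation channel, had the single positive estimate of the list, 0.56, with a 95% interval from -0.84 to 1.96.

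Grouped by their level in rods relative to retina, the 2 classes with the lowest ratio had the lowest median interactions. The level ratio was the mean of the 6 rod libraries minus that of the 6 retina libraries on the log2 scale. Of 2236 genes with a ratio under -3, 8.63% were lower and 0.894% higher at an unadjusted p under 0.05, and the median interaction was -0.28. The median genotype effect of this class was -0.36 in rods and -0.09 in retina. Of 2291 genes between -3 and -2, the median interaction was -0.24, and of 1524 genes between -2 and -1 it was -0.07. In the classes above these the medians were 0.02 from -1 to 0, 0.04 from 0 to 1 and 0.00 over 1. Among the 507 lower genes, 65.7% had a ratio under -2, against 24.97% of all genes tested and 17.9% of the 218 higher genes. The ratio and the interaction came from the same libraries, so these values are a description.

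The class medians moved with the library pairs. In the class under -3, the median log2 level in rods minus retina was -3.44, -2.94 and -3.24 in the control pairs and -3.27, -3.65 and -3.51 in the Rodko pairs. Rodhet replicate 2 was thus the highest, and the genotypes overlapped through Rodko replicate 1 and Rodhet replicate 1. The class median was -0.14 without both libraries of Rodhet replicate 2 and -0.18 without both of Rodko replicate 2. In the class from -3 to -2 these values were -0.09 and -0.16. The negative sign stayed in both classes with each single library or pair left out. Of the genes with a ratio under -3, 87.2% of the 965 with at least 100 mean scaled reads had a negative estimate, and 58.9% of the 1271 with fewer reads did, against 50.04% of all genes tested.

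**Figure D3:**
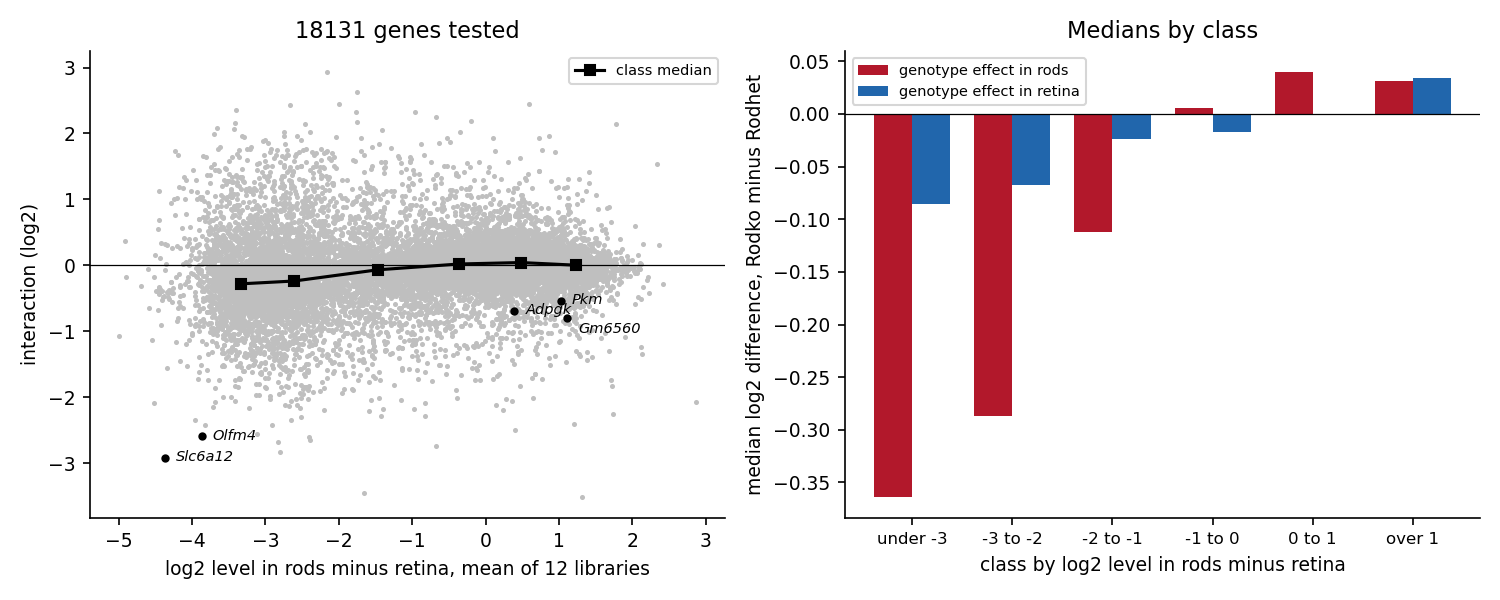
Left, interaction (log2) of all 18131 genes tested against the log2 level in rods minus retina, with class medians as black squares. Right, median genotype effect in rods (red) and retina (blue) by class, where the rod medians reach -0.36 and -0.29 in the lowest classes and the retina medians -0.09 and -0.07.

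The medians of the rod lists lay near 0. The 20 genes of rod phototransduction had a median interaction of -0.02 and none passed an unadjusted p of 0.05 (background 4.0%). Gnat1 had -0.02 (95% interval -0.38 to 0.33). The largest estimate was that of Guca1a, which encodes a guanylate cyclase activating protein, at 0.39 (unadjusted p = 0.0967, 0.0473 with the pair block). The 12 photoreceptor transcription factors lay between -0.17 and 0.08, with a median of -0.05.

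Among 20 genes of the rod outer segment and cilium, the median was -0.05, and Reep6, a membrane-shaping protein of the rod endoplasmic reticulum, was the one lower gene at an unadjusted p under 0.05 (interaction -0.31). With the pair block 3 of the 20 were lower, where 4.66% of all genes were lower. Reep6 had 50080 to 57231 and 44678 to 54271 scaled reads in the rod groups and 16097 to 17777 and 18094 to 20956 in the retina groups. The rod groups overlapped and the retina groups did not, so the groups separated in retina alone. The ribbon synapse list of 20 genes had 2 lower genes (10% of the list, beside 2.80% of all genes), or 3 with the pair block, where 4.66% of all genes were lower. Elfn1, which links rod terminals to bipolar cells, had 3616 to 4162 and 3673 to 3938 scaled reads in rods and 1280 to 1657 and 1708 to 1930 in retina (interaction -0.36). Cplx3, a complexin of photoreceptor and some amacrine synapses, stood at 69.0% of control in rods and 87.7% in retina (interaction -0.33). The 12 cone genes had a median of 0.01 and none passed.

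The inner retinal lists had negative medians, and no gene of them passed the adjusted threshold. Their median level ratios ran from -3.31 for horizontal cells to -2.97 for Müller glia. Of all 2236 genes with a ratio under -3, 71.2% were negative, and the median interaction was -0.28. In that class 8.63% were lower at an unadjusted p under 0.05, and 311 of the 2236 were lower with the pair block. Of 14 amacrine genes, 13 were negative with a median of -0.44, and 3 had an unadjusted p under 0.05, or 8 with the pair block, where that fit gave 4.66% lower genes overall. Gad1, which makes GABA, had 399, 683 and 444 scaled reads in control rods and 327, 280 and 309 in Rodko rods, with 3381 to 4027 and 3206 to 3601 in retina. The rod groups did not overlap, control replicate 2 was the highest, and the interaction was -0.57. Slc18a3, the vesicular acetylcholine transporter, had -1.09, and Tfap2a, an amacrine transcription factor named after its value was seen, -0.67.

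All 14 ganglion cell genes were negative, with a median of -0.32, and 1 passed an unadjusted p of 0.05 (2.80% of all genes were lower), or 4 with the pair block (4.66% of all genes). The one in the first fit was Pou4f1, a transcription factor of ganglion cells, at 65.4% of control in rods and 108% in retina (interaction -0.73). The 14 Müller glia genes had a median of -0.17 with 13 negative, and the 20 bipolar genes one of -0.12 with 13 negative, and none of either list passed, or 3 and 1 with the pair block. Glul, the glutamine synthetase of Müller glia, had -0.13 (95% interval -0.42 to 0.16) and Trpm1, the channel of ON bipolar dendrites, -0.27 (-0.79 to 0.26). The bipolar list holds none of the genes that the study lists. The median of 7 horizontal cell genes was -0.32, with members from -0.99 to 1.01 for Onecut2, and it ran from -0.54 to -0.13 with a library or pair left out. With the pair block 1 of the 7 was lower and 1 higher, beside 4.66% and 2.19% of all genes.

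In the library pairs the amacrine median was -3.26, -2.54 and -2.998 in controls and -3.10, -3.78 and -3.37 in Rodko, so that the genotypes overlapped. The ganglion median was -3.10, -2.74 and -3.20 against -3.22, -3.65 and -3.38, and here they did not. The nearest of these values, -3.2042 in control replicate 3 and -3.2175 in Rodko replicate 1, lay close together. Without both libraries of Rodhet replicate 2, the amacrine median was -0.27, the ganglion median -0.19, the Müller glia median -0.06 and the bipolar median -0.05. Without both of Rodko replicate 2 they were -0.32, -0.24, -0.16 and 0.02. The direction therefore held for amacrine, ganglion and Müller glia genes, and the bipolar median changed sign.

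Among cells outside the neural retina, the 13 vessel genes had a median of -0.37 with 8 negative. At an unadjusted p under 0.05, 1 was lower, or 2 with the pair block, where 2.80% and 4.66% of all genes were lower. Flt1, a VEGF receptor, had 133 to 198 scaled reads in control rods and 72.9 to 114 in Rodko rods, and its interaction was -0.67 (unadjusted p = 0.0110). The 12 microglia genes had a median of 0.12 with 5 negative, which was -0.30 without the rod library of control replicate 2 and -0.26 without that of Rodko replicate 1. Aif1, with 0 to 8.15 scaled reads in the rod libraries, was the one higher gene (1.79, 95% interval 0.12 to 3.46). The 17 tested genes of gliosis and injury had a median of -0.25 with 13 negative and none past an unadjusted p of 0.05. With the pair block 2 of the 17 were lower, where 4.66% of all genes were lower. The medians of the gliosis list were -0.55 in rods and -0.17 in retina. The vessel and gliosis lists had median level ratios of -2.92 and -2.81. Of all genes with a ratio from -3 to -2, 66.7% were negative.

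**Figure D4:**
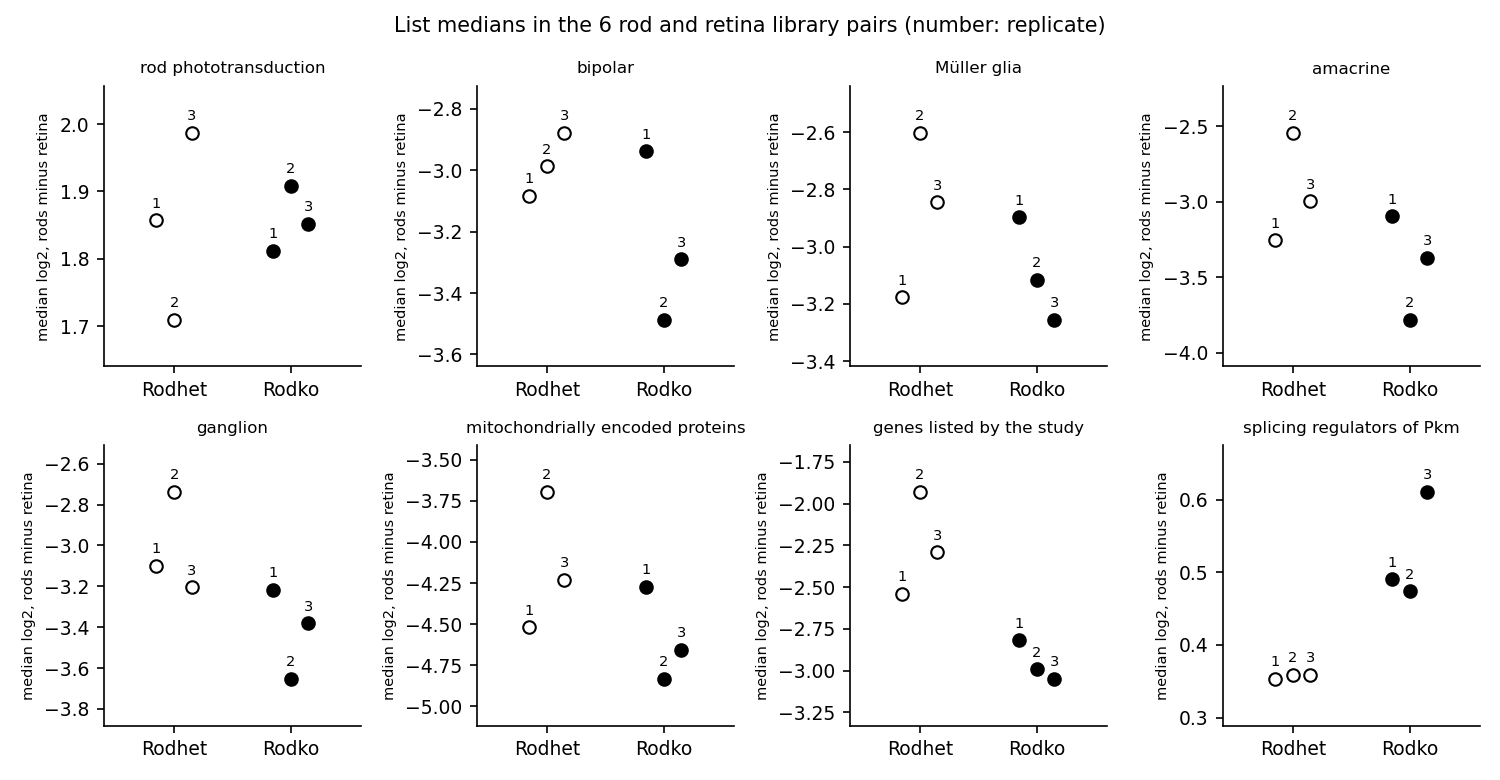
Median log2 level in rods minus retina over the genes of 8 lists (vertical axes, a different range in each panel) in the 3 Rodhet (open) and 3 Rodko (filled) library pairs, labelled by replicate. Rodhet replicate 2 is the highest control pair for the amacrine, ganglion, Müller glia and mitochondrial lists, and the genotypes separate for the ganglion genes, the genes listed by the study and the splicing regulators.

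The median interaction of the enzymes around pyruvate kinase lay near 0. The 19 tested glycolysis genes other than Pkm had a median of 0.03, with effects of 0.12 in rods and 0.05 in retina. Single members ran from -0.66 to 0.27. With the pair block, 3 of the 19 were higher at an unadjusted p under 0.05, where 2.19% of all genes were higher. Without the block, Gapdh alone passed an unadjusted p of 0.05 in limma (interaction 0.27, unadjusted p = 0.0379). Gapdh had 11245 to 11986 and 11727 to 13482 scaled reads in the rod groups and 4877 to 5990 and 4577 to 5179 in the retina groups. The groups overlapped in both fractions. Tpi1, triose phosphate isomerase, had 0.22. Pklr, the liver-type pyruvate kinase, had too few reads to be tested. Adpgk is not on this list.

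Among 21 genes for the handling of pyruvate and lactate the median was 0.03, and Slc16a7 was the one gene at an unadjusted p under 0.05. Slc16a7, the monocarboxylate transporter MCT2, had 19.6, 39.1 and 30.2 scaled reads in control rods and 13.0, 12.2 and 10.1 in Rodko rods, against 186 to 223 and 195 to 251 in retina. Its interaction was -1.23 (95% interval -1.97 to -0.50, unadjusted p = 0.00282), and it had 39.7% of the control level in rods and 102% in retina. Pdhx, a subunit of the pyruvate dehydrogenase complex, had 0.22 and did not pass.

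The 18 genes of the tricarboxylic acid cycle had a median of 0.05 with 15 positive, and the 10 of the pentose phosphate pathway one of 0.00, and no gene of either list passed. The median of the cycle was 0.63, 0.62 and 0.71 in the control pairs and 0.75, 0.77 and 0.77 in the Rodko pairs, so that the genotypes did not overlap. Genes grouped by position alone, within 10 Mb of Pkm, also had separate pair medians (-0.0059 to 0.0355 in controls, 0.0547 to 0.0814 in Rodko). Those of the class with a level ratio from 0 to 1 overlapped. In that class 38.9% of genes were negative, beside 16.7% of the cycle genes, whose median ratio was 0.74. Fh1, fumarate hydratase, had 0.21 (unadjusted p = 0.0553), and Prps1, which makes phosphoribosyl pyrophosphate, had 0.13. The medians of 17 fatty acid oxidation genes and 13 serine and one-carbon genes were 0.06 and -0.03. Cpt1c, a carnitine palmitoyltransferase of neurons, was the one gene among them at an unadjusted p under 0.05, at -0.47 (unadjusted p = 0.0483). With the pair block none of these genes was lower, and 1 fatty acid oxidation gene was higher, where 2.19% of all genes were higher. Of the 6 gluconeogenesis genes 3 had enough reads, and these had a median of -0.12.

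The 19 cholesterol genes had a median of 0.05, with 1 lower and 1 higher (5.26% each, beside 2.80% and 1.20% of all genes) at an unadjusted p under 0.05. Its members ran from -1.19 to 0.34, and the library pairs had medians of 0.05, -0.08 and 0.04 in controls and 0.09, 0.19 and 0.28 in Rodko. The higher gene was Msmo1. Msmo1, a methylsterol oxidase of cholesterol synthesis, had 662 to 774 scaled reads in control and 764 to 835 in Rodko rods and 684 to 773 and 636 to 654 in retina (interaction 0.34, unadjusted p = 0.0136).

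Transcripts encoded in the mitochondrial genome were negative throughout. All 13 genes had interactions from -0.53 to -0.18, the median was -0.41, and none passed an unadjusted p of 0.05, while 10 did with the pair block, where 4.66% of all genes were lower. The list stood at -0.53 in rods and -0.13 in retina. These transcripts are made inside mitochondria and translated on mitochondrial ribosomes, which do not carry the tagged protein, and their rod level was far below their retina level (median ratio -4.39). In the class with a ratio under -3, the medians were -0.36 in rods and -0.09 in retina. With the pair block, 311 of the 2236 genes of that class were lower. mt-Nd4, a complex I subunit, had 3921, 5924 and 4399 scaled reads in control rods and 4254, 2135 and 3021 in Rodko rods, groups that overlapped. The list median was -0.16 without both libraries of Rodhet replicate 2 and -0.30 without both of Rodko replicate 2.

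The nuclear genes of the same complexes had a median on the other side of 0. The 79 tested nuclear subunits of oxidative phosphorylation had a median of 0.06, and none passed an unadjusted p of 0.05. With the pair block 2 of the 79 were lower, where 4.66% of all genes were lower. Ndufs7, a complex I subunit, had -0.42 and Ndufb2 0.21. The 80 cytosolic ribosomal protein genes had a median of 0.07, and Rps10, with up to 5.43 scaled reads in the rod libraries, was the one higher gene (1.58). With the pair block 2 of the 80 were lower and 5 higher, beside 4.66% and 2.19% of all genes. The 76 mitochondrial ribosomal protein genes had a median of 0.06, with 3 higher (3.95%, beside 1.20% of all genes) and 1 lower (1.32%, beside 2.80%) at an unadjusted p under 0.05. Mrps30 had 378 to 440 and 465 to 535 scaled reads in the rod groups and 273 to 316 and 263 to 266 in the retina groups (interaction 0.42), and Mrps34 had -1.65 with at most 57.2 scaled reads in any library. The other higher genes were Mrpl24 and Mrps5, at 0.39 and 0.28, which were named after their values were seen. The 148 ribosomal protein pseudogenes and 2566 predicted Gm genes had medians of 0.02 and 0.00.

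Regulators of the alternative exons of Pkm had positive estimates more often than not. Of 9 genes, 6 were positive with a median of 0.17, from -0.20 to 0.52. Negative estimates made up 33.3% of the list, beside 50.04% of all genes and 38.9% of genes with a level ratio from 0 to 1. The median ratio of the list was 0.44. None of the 9 passed an unadjusted p of 0.05, and 2 were higher with the pair block, where 2.19% of all genes were higher. With limma's block fit, Hnrnpa1 (0.21) had an unadjusted p of 0.0334 and Hnrnpa2b1 (0.23) one of 0.0263, and both repress inclusion of the Pkm1 exon. Hnrnpa2b1 had a genotype effect of 0.06 in rods and -0.17 in retina. The median interaction stayed positive with each library or pair left out, between 0.10 and 0.23. For the list, the median genotype effect was 0.05 in rods and -0.0024 in retina.

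Stress and activity genes gave no common direction. The 20 antioxidant genes and 17 tested heat shock and unfolded protein response genes each had a median of 0.04, and none passed an unadjusted p of 0.05. With the pair block, 1 antioxidant gene was higher, and the heat shock list had 3 lower and 2 higher genes, where 4.66% and 2.19% of all genes were lower and higher. The lower ones were the inducible chaperones Hspa1a (-0.51), Hspa1b (-0.48) and Hspb1 (-1.18), and the higher ones Hsp90ab1 (0.23) and Hspa5 (0.19), of which Hspa1a, Hspa1b and Hspa5 were named after their values were seen. In the library pairs the Rodko medians lay above those of all controls, at 0.92 to 0.99 against 0.78 to 0.89 for heat shock and 0.32 to 0.39 against 0.15 to 0.31 for antioxidant genes. Without the rod library of Rodko replicate 1 both medians were -0.017, and the heat shock median was also -0.0020 without the rod library of control replicate 2 or the retina library of Rodko replicate 2. Genes within 10 Mb of Pkm, grouped by position alone, also had Rodko pair medians above those of all controls, as given above. The 16 clock genes had a median of 0.03. Of 11 tested immediate early genes 8 were negative with a median of -0.23, and Jun had 455 to 509 and 360 to 462 scaled reads in the rod groups and 260 to 309 and 307 to 343 in the retina groups (interaction -0.43, unadjusted p = 0.0199). For Jun the groups overlapped in both fractions. With the pair block 2 immediate early genes were lower, where 4.66% of all genes were lower.

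**Figure D5:**
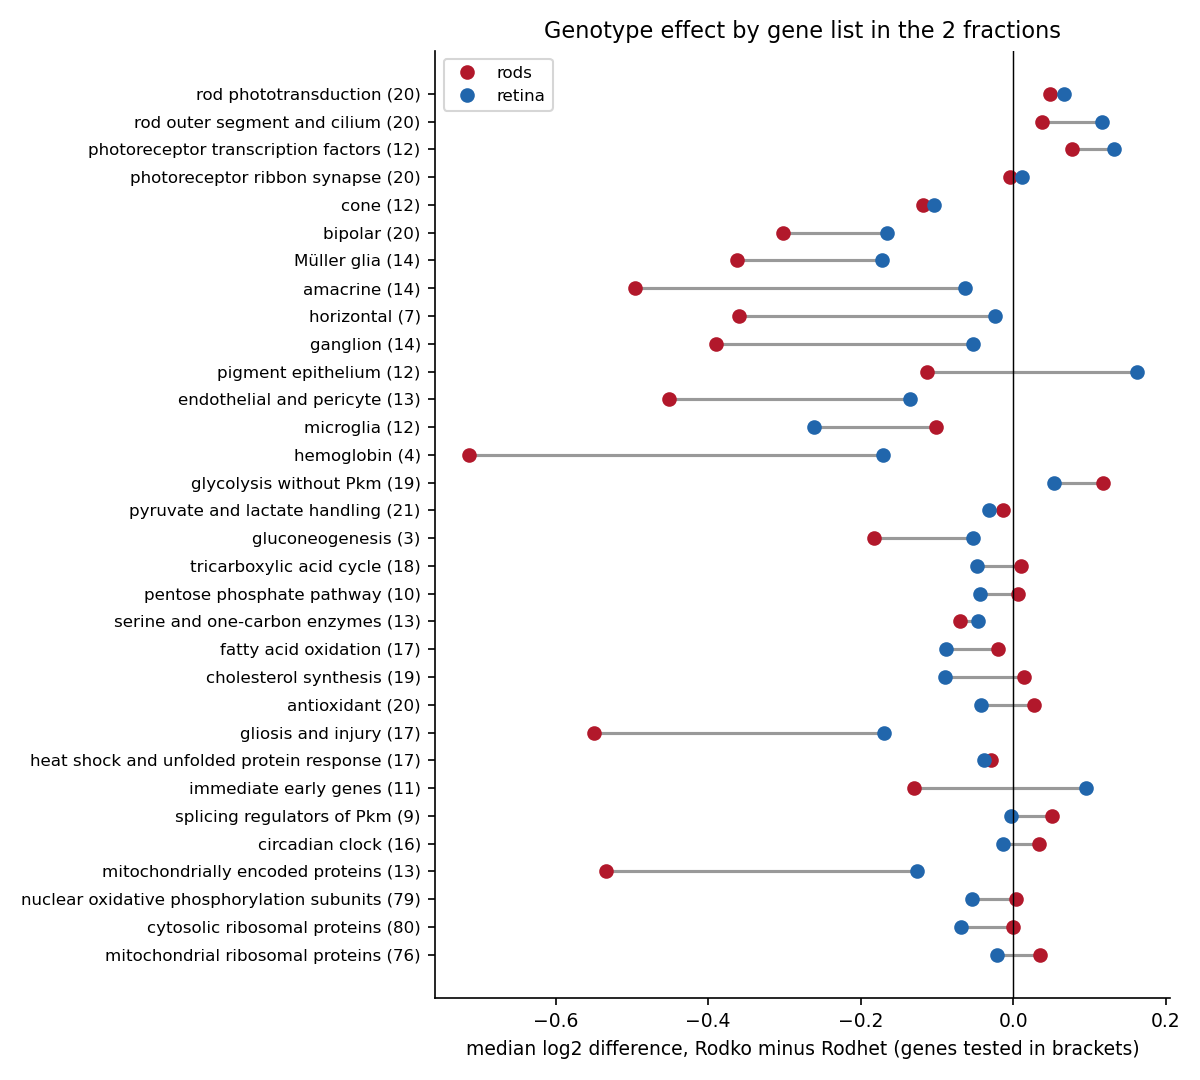
Median genotype effect (horizontal axis, log2, Rodko minus Rodhet) in rods (red) and in retina (blue) by gene list, with the number of genes tested in brackets. The line between the points is the gap between the fractions. Both points of the rod phototransduction list lie near 0 (0.05 and 0.07), and the rod point is far to the left of the retina point for the amacrine (-0.50 and -0.06) and mitochondrially encoded (-0.53 and -0.13) lists.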

How the data were processed

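Gene expression was measured by RNA sequencing of rod polyribosomes (Rod-TRAP) and total retina in Pkm2 Rodhet and Pkm2 Rodko mice, 12 libraries in 4 groups of 3. The authors deposited a signal table in which the reads of each gene were divided by a size factor of each library within its fraction and rounded to 1 decimal. Per the labels, the submitters' processing notes name CASAVA 1.8.2, HISAT2, DESeq2, edgeR and the build GRCm39, while the counter, its annotation and its use of strand were not given in the sources used here. Overlapping and antisense genes therefore cannot be told apart. Whole reads could be recovered for 100% of the values in all 56748 genes, and depth ranged from 13458890 to 22790074 reads.

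The reads were scaled over all 12 libraries by TMM in edgeR 4.0.16 (R 4.3.3). Genes with a mean of at least 5 scaled reads were tested by limma 3.58.1 with a mean-variance trend, on log2(scaled reads + 1), with a mean for each group and Benjamini-Hochberg adjustment at 0.05. Fold changes on this scale understate the change of low genes. The sources used here name no test for the RNA-seq. The code was tested on simulated data. Alternatives changed the scaling, pseudocount, filter, tool (edgeR, DESeq2 1.42.0) or block, or left out a library or a pair. Those that left out both libraries of a pair, and the edgeR fit with a block, were chosen after seeing the data.

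Same-numbered rod and retina libraries of a genotype deviated from their group means together, with correlations of 0.273 to 0.556 over 12730 genes in all 6 pairs, so the numbers pair the libraries. Replicates differed by more than counting noise.

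The genes named are Pkm and the others the study lists, the 10 with the smallest p in each direction with at least 50 mean scaled reads, the 2 members of each list with the smallest p, the sex-linked genes, and the markers Gnat1, Trpm1 and Glul, and some genes that this rule names are not reported here. Members and lists were chosen with earlier results of these data known. GRCm38 served for gene order, names and the Pkm exons alone, since the genome of the build of the files was not used here.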

Additional observations from a re-analysis of the deposited data

How the results depend on the processing

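The count of genes past the adjusted threshold stayed at 0 under the alternatives other than DESeq2, which called 1 lower gene (Pkm, at -0.55), and leaving out Rodko rod replicate 1, so that it ranged from 0 to 1 with a library or pair left out. At an unadjusted p under 0.05, there were 337 lower genes with 10 reads required in every library and 590 higher genes with no filter, and 264 to 1023 lower and 115 to 484 higher genes with a library or pair left out. With the replicate block by genotype and number there were 844 lower and 397 higher genes, and 1066 lower genes in edgeR with this block, none past the adjusted threshold. The cause of these moves was not tested. Of 3591 alternative fits of 113 named genes other than Pkm, 3555 kept their direction and side of the threshold, 35 changed sign and 1, Olfm4 without Rodko rod replicate 1, passed. Kdm5d, whose 95% interval spans 0, was 0.47 in edgeR with TMM, 0.48 with RLE, 0.27 in DESeq2 and 0.24 in edgeR with the replicate block, and Ddx3y was -0.19 on the values as deposited and -0.18 scaled by total reads. With a library or pair left out, the interaction of Trpm2 ran from -0.010 to 1.30, that of Crybb2 from -4.28 to 0.20, Cryab from -0.70 to 0.073 and H6pd from -0.60 to 0.026. Among Y-linked genes it ran in Eif2s3y from -1.95 to 2.65, Kdm5d from -2.61 to 1.83, Uty from -1.86 to 2.81 and Ddx3y from -2.43 to 2.77. In the rod marker Gnat1 it ran from -0.10 to 0.049. Of 45 list and class medians, 41 moved by less than 1 SD between the library pairs under every alternative that kept all libraries. That SD is wide for lists with few reads, and within it crystallins ran from -0.50 to 0.40 with 5 changes of sign, endothelial and pericyte genes from -0.41 to -0.10, microglia from 0.098 to 0.33 and gliosis from -0.39 to -0.15. Those that moved further were the sex-linked genes (-0.19 as deposited, -0.18 by total reads, -0.86 with 10 reads in every library, 0.47 and 0.48 in edgeR with TMM and RLE) and the genes within 10 Mb of Pkm (-0.0053 by total reads, 0.0034, 0.013 and 0.0039 in edgeR with TMM, RLE and the block, 0.012 in DESeq2). The class from 0 to 1 was 0.0087 by total reads, and the median of all genes was -0.034 by total reads, -0.028 in edgeR and -0.031 with its block. With a library or pair left out, the median ran for ganglion genes from -0.56 to -0.19, pigment epithelium from -0.97 to 0.43, endothelial and pericyte from -0.56 to -0.034, microglia from -0.30 to 0.42 and crystallins from -1.32 to 1.75. It ran for hemoglobin from -1.07 to -0.0020, gliosis and injury from -0.58 to 0.025, immediate early genes from -0.42 to -0.12, heat shock from -0.017 to 0.12 and antioxidant from -0.017 to 0.11. It ran for tricarboxylic acid cycle from 0.025 to 0.10, splicing regulators from 0.10 to 0.23, nuclear oxidative phosphorylation from -0.042 to 0.17, cytosolic ribosomal proteins from -0.048 to 0.16 and mitochondrial ribosomal proteins from -0.019 to 0.13. It ran for predicted Gm genes from -0.051 to 0.048, genes within 10 Mb of Pkm from -0.010 to 0.048 and sex-linked genes from -1.95 to 2.65. Intervals were widest for genes with few mean reads over all libraries.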

Other observations

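Lists of tissue next to the retina varied widely between libraries. The 12 pigment epithelium genes had a median interaction of -0.30, and their summed level ran from 491 to 3018 scaled reads in control rods and from 668 to 2034 in Rodko rods. In retina it ran from 2437 to 20524 in controls and from 4143 to 12881 in Rodko. The 7 tested crystallins, structural proteins of the lens, had a median of 0.16, with summed levels of 48.4 to 432 and 43.3 to 102 scaled reads in the rod groups. The 4 hemoglobin genes had a median of -0.54, with 149 to 369 and 77.4 to 265 scaled reads in the rod groups. No gene of these lists passed an unadjusted p of 0.05, and the summed levels of the groups overlapped in both fractions. With the pair block, 2 of the 4 hemoglobin genes and 1 of the 12 pigment epithelium genes were lower, where 4.66% of all genes were lower.

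The 5 tested sex-linked genes had a median interaction of 0.21. With 0 reads of the Y-linked genes in both fractions of control replicates 1 and 2, the interaction of Eif2s3y was -1.95 without the retina library of control replicate 3 and 2.65 without its rod library.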
